A study of Mus musculus with 5 samples.

Results

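The genes described here encode the type IV collagen chains (Col4a1 to Col4a6), the nidogens (Nid1 and Nid2) and perlecan (Hspg2), measured in sorted lymphatic endothelial cells (LECs) of mouse lymph nodes. They were taken by name as the network collagens and linkers of the basement membrane, and all 9 were found among the 27843 genes of the count table. LECs form the walls of the node's sinuses, through which lymph flows, and they express RANK, to which the cytokine RANKL binds. Knockout mice carried Ccl19 Cre together with Rankl flox/flox, so that Cre driven by Ccl19 removes RANKL from Ccl19-expressing stromal cells and not from the LECs themselves, and their littermate controls carried Rankl flox/flox without Cre. All mice were C57BL/6 and 8 weeks old, with 2 knockout and 3 control libraries. The sort took cells that stained for CD31 and podoplanin but not for CD45 or TER119. The labels do not say how many animals or lymph nodes went into a library, and p-values therefore measure only the spread between these 5 libraries.

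The basement membrane is a thin sheet of extracellular matrix under endothelia and epithelia. Type IV collagen chains assemble as trimers that link into a network: the products of Col4a1 and Col4a2 form the trimer of nearly all basement membranes, those of Col4a3, Col4a4 and Col4a5 form the trimer known from the kidney glomerulus, and those of Col4a5 and Col4a6 form another with a restricted distribution. Nidogens bridge the collagen network to the laminin network, and perlecan is a large heparan sulfate proteoglycan that binds both as well as growth factors. Lymphatic capillaries are known for a sparse, discontinuous basement membrane.

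Total counts were 53301671 and 59725200 in knockout libraries 1 and 2, and 52839375 to 70171307 in the control libraries. Levels are counts scaled to library size (CPM), and 1 CPM stood for 53.3 and 59.7 reads in the knockouts and 52.8 to 70.2 reads in the controls before scaling factors were applied. The LEC transcription factor gene Prox1 stood at 884 and 852 CPM in knockouts and 1384 to 1577 CPM in controls, and Lyve1 at 2441 and 3663 CPM in knockouts and 4321 to 4717 CPM in controls, while the leukocyte gene Ptprc (CD45) stayed at 2.39 and 2.89 CPM in knockouts and 2.15 to 2.73 CPM in controls. The libraries therefore carried these LEC markers. Of the 12 LEC markers read below, 3 were called higher in knockout (Ccl21a, Mmrn1 and Sox18) and 1 lower (Prox1), and Lyve1 was not called. Of all tested genes, 3.25% were called higher and 3.99% lower.

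Of the 9 genes, 4 fell in knockout and 0 rose. Col4a6 fell most, to 0.22 of the control level, Col4a5 fell to 0.42, Nid1 to 0.64 and Nid2 to 0.70. Perlecan was lower in both knockout libraries and lay just outside the threshold, and the major chains Col4a1 and Col4a2 overlapped between groups. Calls were made with edgeR's quasi-likelihood test at a Benjamini-Hochberg adjusted p of 0.05 over 15874 genes, by which 3.99% of all genes were lower and 3.25% were higher. All 9 genes passed the filter on low counts, and their median log2 fold change (knockout minus control) was -0.56, against -0.00 over all tested genes. For 5 of the 9 genes both knockout libraries lay below all controls, as they did for 22.5% of all tested genes. In sorted pools, fewer cells of a type and less RNA per cell cannot be told apart.

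Transcripts of these genes are long, with 5174 to 14307 exon bases, and long genes tended to be lower in knockout: the median log2 fold change was -0.14 over the 3956 genes with the longest exons (at or above the 75th percentile). When exon length and GC content entered the same fit as an offset, 2 of the 9 genes remained lower (Col4a5 and Col4a6), and 1.97% of all genes were lower. Without control library 3, 0 of the 9 were lower, in a fit that called 11 genes in all and 0.0576% of all genes lower. Without control 1, 2 were lower, beside 0.856% of all genes, and without control 2 again 2, beside 0.616%. Without knockout 1, 4 were lower, beside 6.76% of all genes, and without knockout 2, 3 were lower, beside 5.67%.

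**Figure D1:**
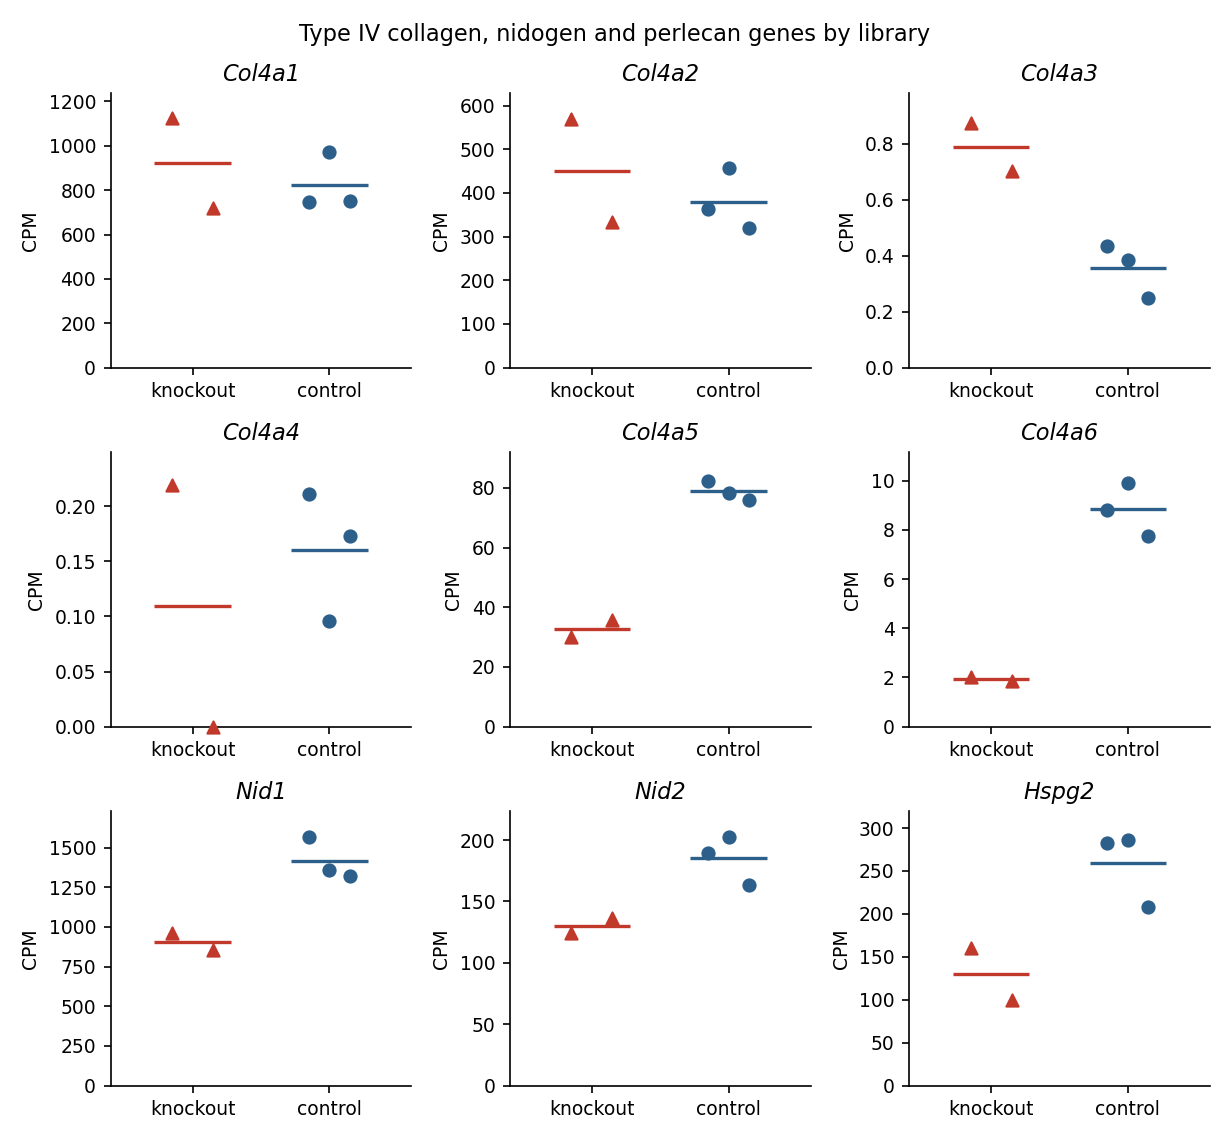
CPM (vertical axes, linear, each from 0) of the 9 genes in each library, with knockouts as triangles on the left, controls as circles on the right and a bar at each group mean. Col4a5, Col4a6, Nid1, Nid2 and Hspg2 have both knockout libraries below all controls; Col4a1 stands at 1124 and 721 CPM in knockouts and 747 to 974 CPM in controls.

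**Figure D2:**
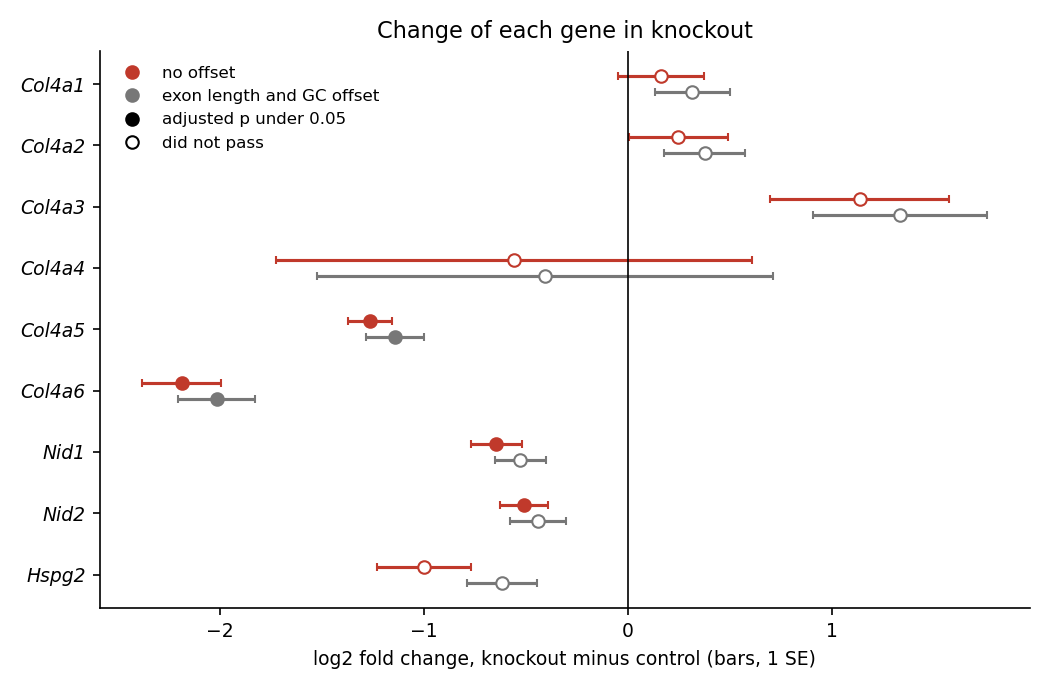
Log2 fold change, knockout minus control (horizontal axis), of each gene, with bars of 1 SE, without an offset (red) and with the exon length and GC offset (grey). Filled points passed an adjusted p of 0.05; Col4a5 (-1.26) and Col4a6 (-2.18) passed in both fits, and Nid1 (-0.64) and Nid2 (-0.51) passed without the offset.

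Col4a6 and Col4a5 lie head to head on chromosome X and are transcribed away from each other. Col4a6 (ENSMUSG00000031273) covers chrX:141165403-141474076 on the minus strand and Col4a5 (ENSMUSG00000031274) chrX:141475385-141689234 on the plus strand (mm10), and 1309 bases separate their outermost annotated starts. The bases just upstream of each start are shown because this is the gene pair in which both members fell. They run 5′ to 3′ on the gene's own strand, from RefSeq on GRCm38.p6, as chrX:141474077-141474326 for Col4a6 and chrX:141475169-141475384 for Col4a5. Capitals mark matches on either strand to the CCAAT box (CCAAT), the GC box (GGGCGG), the AP-1 motif (TGANTCA) or an NF-kB motif (GGGRNNYYCC). R stands for A or G, Y for C or T and N for any base.
Col4a6: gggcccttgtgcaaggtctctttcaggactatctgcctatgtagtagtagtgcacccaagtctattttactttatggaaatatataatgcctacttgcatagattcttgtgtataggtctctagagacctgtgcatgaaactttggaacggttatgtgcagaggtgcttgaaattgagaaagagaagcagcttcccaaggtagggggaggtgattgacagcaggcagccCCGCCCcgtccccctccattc
Col4a5: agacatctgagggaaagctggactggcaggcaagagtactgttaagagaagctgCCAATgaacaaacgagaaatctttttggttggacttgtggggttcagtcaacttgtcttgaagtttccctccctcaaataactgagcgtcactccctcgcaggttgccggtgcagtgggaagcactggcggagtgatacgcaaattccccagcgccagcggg

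Over the full windows of 300 bases around the RefSeq starts, which exist for 7 of the 9 genes, Col4a6 held 1 GC box and 0 CCAAT boxes, and Col4a5 held 1 of each, with the GC box beyond the stretch printed. Neither held an AP-1 or NF-kB match by these letters. A GC box was present in 35.6% of 32817 such mouse windows, a CCAAT box in 37.4%, an AP-1 match in 7.81% and an NF-kB match in 8.46%. The 2 windows have less G and C (48.3% for Col4a6 and 52.7% for Col4a5) than those of Col4a1 (74.0%) and Col4a2 (73.7%).

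Col4a6 had 111 and 108 reads in knockout libraries 1 and 2, against 626, 619 and 403 reads in control libraries 1, 2 and 3. In CPM these were 2.03 and 1.86 in knockouts and 8.82, 9.92 and 7.76 in controls. The knockout libraries stood close together and far below every control. The log2 fold change was -2.18 ± 0.19 (SE, edgeR quasi-likelihood, Benjamini-Hochberg, adjusted p = 0.0096), and -2.01 ± 0.19 with the length and GC offset (adjusted p = 0.01). Leaving out control 3 gave -2.27 without a call (adjusted p = 0.063).

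Col4a5 encodes the chain that both restricted trimers share. It had 29.97 and 35.69 CPM in knockouts, against 82.45, 78.20 and 76.04 CPM in controls. The spread within each group was small beside the gap between them. The log2 fold change was -1.26 ± 0.11 (SE, edgeR quasi-likelihood, Benjamini-Hochberg, adjusted p = 0.0095), and -1.14 ± 0.14 with the offset (adjusted p = 0.016). Without control 3 it was -1.29 (adjusted p = 0.064).

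Col4a1 and Col4a2, the chains of the common trimer, are also head to head. Col4a1 (ENSMUSG00000031502) covers chr8:11198423-11312826 on the minus strand and Col4a2 (ENSMUSG00000031503) chr8:11312805-11449287 on the plus strand (mm10), so that the annotated first exons overlap by 22 bases. Col4a1 had 1124 and 721 CPM in knockouts, against 747, 974 and 751 CPM in controls. Col4a2 had 569 and 334 CPM in knockouts, against 364, 457 and 320 CPM in controls.

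For both genes knockout 1 was the highest library of the 5, while knockout 2 was the lowest of all for Col4a1 and second lowest for Col4a2. The log2 fold changes were 0.16 ± 0.21 for Col4a1 and 0.25 ± 0.24 for Col4a2 (SE, edgeR quasi-likelihood, Benjamini-Hochberg, adjusted p = 0.68 and 0.57), and neither passed in any setting tried. Without knockout 1 both turned negative, at -0.20 and -0.19, and without knockout 2 they stood at 0.44 and 0.58. Fibroblastic reticular cells also make type IV collagen, and the summed level of their 12 markers was highest in the same library, at 1359 and 718 CPM in knockouts and 657 to 882 CPM in controls. Most of the sum in knockout 1 came from Dcn (692 CPM) and Col3a1 (213 CPM), and 6 of the 12 markers were highest in that library while 6 were not. The sums of the pericyte and smooth muscle (209 CPM), epithelial (39.8 CPM), leukocyte (16.6 CPM) and LEC (13277 CPM) markers were also highest in knockout 1. That of the blood endothelial markers was highest in knockout 2 (4236 CPM). The part of these cell types in the levels of Col4a1 and Col4a2 was not tested.

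Col4a3 and Col4a4 were near the detection limit. Col4a3 (ENSMUSG00000079465, chr1:82586921-82722059, plus strand) and Col4a4 (ENSMUSG00000067158, chr1:82448423-82586849, minus strand) start 72 bases apart on mm10. Col4a3 had 48 and 41 reads in knockouts, against 31, 24 and 13 reads in controls. Both knockout libraries lay above all controls, but the log2 fold change of 1.13 ± 0.44 did not pass (SE, edgeR quasi-likelihood, Benjamini-Hochberg, adjusted p = 0.16). Of its exon bases, 5.65% are shared with C430014B12Rik on the other strand, and these libraries do not mark strand.

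Col4a4 had 12 and 0 reads in knockouts, against 15, 6 and 9 reads in controls. Knockout 1 lay within the control range, and the 0 reads of knockout 2 allow up to 0.0516 CPM (3 reads, counting error only), which is below the lowest control (0.0961 CPM). The difference did not pass (log2 fold change -0.56 ± 1.16, SE, edgeR quasi-likelihood, Benjamini-Hochberg, adjusted p = 0.81), and it changed sign without knockout 2 (0.44).

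Nid1 (ENSMUSG00000005397, chr13:13437551-13512269, plus strand, mm10) encodes nidogen-1, the major laminin-collagen linker. It had 959 and 852 CPM in knockouts, against 1564, 1361 and 1320 CPM in controls. Every knockout value lay below every control, with a gap larger than the range within either group. The log2 fold change was -0.64 ± 0.12 (SE, edgeR quasi-likelihood, Benjamini-Hochberg, adjusted p = 0.032), and -0.53 ± 0.12 with the length and GC offset, where the call was lost (adjusted p = 0.063). The call was also lost without control 1 (-0.56, adjusted p = 0.078), control 2 (-0.67, adjusted p = 0.094), control 3 (-0.69, adjusted p = 0.11) and knockout 2 (-0.57, adjusted p = 0.0502).

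Nid2 (ENSMUSG00000021806, chr14:19751265-19811787, plus strand, mm10) encodes nidogen-2, a second protein with the same domain plan. It had 124 and 136 CPM in knockouts, against 190, 203 and 163 CPM in controls. The groups did not overlap, and the lowest control stood nearer to the knockouts than for Nid1. The log2 fold change was -0.51 ± 0.12 (SE, edgeR quasi-likelihood, Benjamini-Hochberg, adjusted p = 0.048), close to the threshold, and -0.44 ± 0.14 with the offset (adjusted p = 0.11).

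The call for Nid2 was lost with library totals as the only scaling (-0.51, adjusted p = 0.056), and without control 1 (-0.49), control 2 (-0.44), control 3 (-0.59) or knockout 1 (-0.45). Rtraf overlaps 8.45% of the Nid2 exon bases on the opposite strand, where a read could come from either gene.

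Hspg2 (ENSMUSG00000028763, chr4:137468769-137570630, plus strand, mm10) encodes perlecan and is the longest of the 9 transcripts. It had 160 and 99.3 CPM in knockouts, against 283, 286 and 208 CPM in controls. Both knockout values lay below all controls, and knockout 1 stood well above knockout 2. The log2 fold change was -0.998 ± 0.232 and just missed the threshold (SE, edgeR quasi-likelihood, Benjamini-Hochberg, adjusted p = 0.051). Perlecan passed with DESeq2 (adjusted p = 0.00031), with limma-voom (adjusted p = 0.044), with a filter at 1 CPM (edgeR quasi-likelihood, Benjamini-Hochberg adjusted p = 0.042) and without knockout 1 (-1.39, adjusted p = 0.017). With the length and GC offset the log2 fold change shrank to -0.62 ± 0.17 (edgeR quasi-likelihood, Benjamini-Hochberg, adjusted p = 0.087).

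Levels divided by exon length allow a rough comparison between genes, as the length and GC offset was not applied to them. On this scale (CPM per kb of exon) Nid1 stood at 130 ± 10.9 in knockouts and 204 ± 18.9 in controls, Col4a1 at 124 ± 38.2 and 110 ± 17.4, and Col4a2 at 68.2 ± 25.1 and 57.4 ± 10.5 (SD, n = 2 knockouts and 3 controls, in that order). Each of these 3 genes ranked above at least 95.3% of tested genes in knockouts and 94.9% in controls. Nid1 was the highest in every control library, whereas in knockout 1 Col4a1 (151 CPM per kb) lay above Nid1 (138) and in knockout 2 it lay below (96.7 and 123).

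Below them came Nid2 with 25.2 ± 1.64 CPM per kb in knockouts and 35.8 ± 3.87 in controls, Hspg2 with 9.07 ± 3.01 and 18.1 ± 3.07, and Col4a5 with 4.89 ± 0.602 and 11.7 ± 0.485 (SD). Col4a6 was lower again, at 0.244 ± 0.0151 CPM per kb in knockouts and 1.11 ± 0.136 in controls, and Col4a3 (0.0793 ± 0.0122 and 0.0358 ± 0.00965) was above Col4a4 (0.0103 ± 0.0146 and 0.0151 ± 0.00553). The order of the 9 means was the same in both groups. In knockouts the libraries of the neighbours Nid1 and Col4a1 overlapped, and in controls those of no neighbouring genes did.

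As a share of the summed per-kb level of the 6 type IV chains, Col4a5 and Col4a6 together made up 1.95% and 3.63% in knockouts, against 7.94%, 6.07% and 7.62% in controls. Col4a1 made up 62.4% and 63.3% in knockouts and 59.4% to 62.4% in controls, and Col4a2 35.59% and 33.03% in knockouts and 29.98% to 32.61% in controls. The type IV collagen message was thus dominated by the chains of the common trimer in every library, and Col4a5 and Col4a6 were a smaller part of it in both knockouts. Col4a3, near the detection limit, made up 0.036% and 0.046% in knockouts and 0.016% to 0.026% in controls.

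Ratios of reads within a library, which need no scaling between libraries, were used to ask whether the members of each gene pair differ in their change. The log2 ratio of Col4a5 to Col4a6 was 3.88 and 4.26 in knockouts, against 3.22, 2.98 and 3.29 in controls. Both knockouts lay above all controls, since Col4a6 was reduced by more than Col4a5. The difference was 0.90 (exact permutation test, 2-sided, p = 0.1, which is the smallest value that 2 libraries against 3 can give, and 0.2 after Benjamini-Hochberg adjustment over the 4 ratios tested).

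The log2 ratio of Col4a1 to Col4a2 was 0.98 and 1.11 in knockouts, against 1.04, 1.09 and 1.23 in controls, and differed by -0.07 (exact permutation p = 0.5). Knockout 1 and control 2 were the highest libraries for both genes, and the order of the other libraries differed between them. Nid1 to Nid2 gave 2.95 and 2.64 in knockouts, against 3.04, 2.75 and 3.01 in controls, a difference of -0.14 (exact permutation p = 0.5) that changed sign without knockout 2 (0.01). For Col4a3 and Col4a4 the difference was 3.02 (exact permutation p = 0.1, adjusted 0.2), but it rests on the 0 reads of Col4a4 in knockout 2 and was 0.81 without that library.

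**Figure D3:**
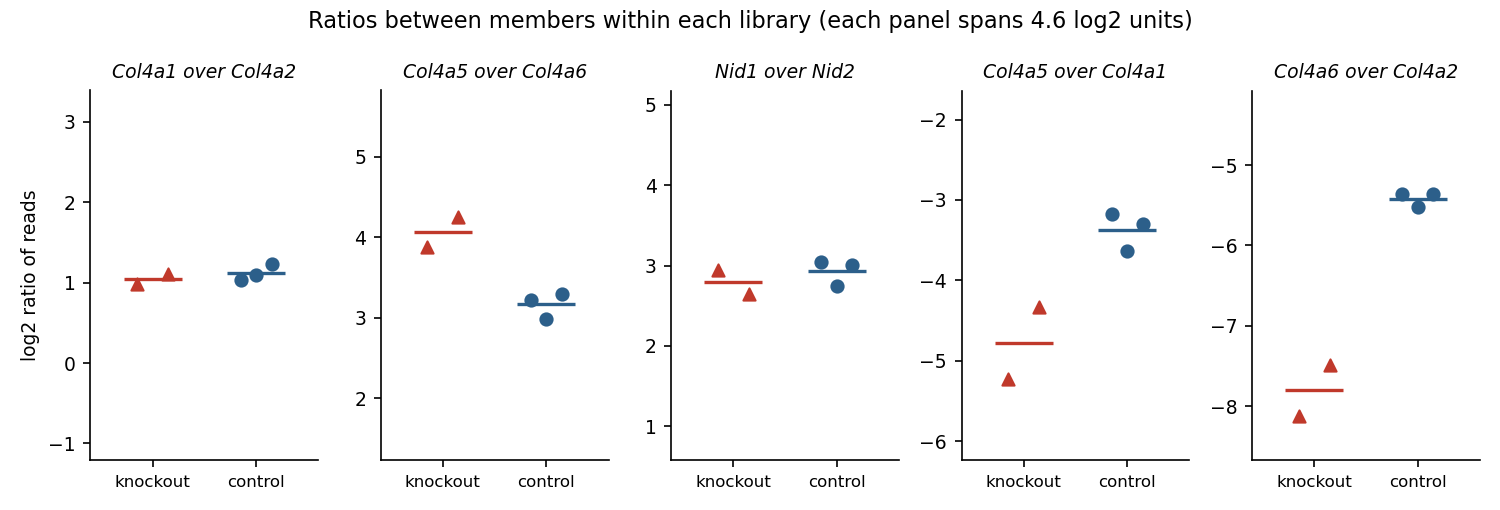
Log2 ratio of reads (vertical axes, equal spans) between members within each library, with knockouts as triangles on the left, controls as circles on the right and a bar at each group mean. The ratio of Col4a1 to Col4a2 overlaps between groups (0.98 and 1.11 in knockouts, 1.04 to 1.23 in controls), and that of Col4a5 to Col4a6 is higher in both knockouts.

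Set against the chain of the common trimer that each resembles most in sequence, Col4a5 and Col4a6 were lower in both knockouts. The log2 ratio of Col4a5 to Col4a1 was -5.23 and -4.34 in knockouts, against -3.18, -3.64 and -3.30 in controls, and that of Col4a6 to Col4a2 was -8.13 and -7.48 in knockouts, against -5.37, -5.52 and -5.37 in controls. These ratios were chosen after the values were seen and are given without a test.

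The genes whose log2 CPM profile over the 5 libraries lay nearest to that of Col4a6, by Euclidean distance after centring each gene, were Pla2r1 (0.32), Hs3st5 (0.41), Oit3 (0.47), Tjp1 (0.49) and Mrc1 (0.56), out of 11119 genes with a mean log2 CPM of at least 1. Pla2r1, which encodes a phospholipase A2 receptor, had 1.84 and 1.81 CPM in knockouts, against 6.60, 7.61 and 6.27 CPM in controls. The log2 fold changes of these 5 genes lay between -2.24 and -1.73, which follows from choosing them for profiles close to that of Col4a6.

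The remaining genes of basement membrane assembly were read from 5 lists with 81 tested genes, of which 4 were higher and 6 lower in knockout (edgeR quasi-likelihood, Benjamini-Hochberg), beside 3.25% higher and 3.99% lower of all tested genes. Of 24 other basement membrane and associated proteins, 2 rose and 3 fell, with a median log2 fold change of -0.11. Sparcl1, a matricellular protein related to SPARC, rose by 2.21 ± 0.24 (SE) and Tinagl1, which encodes a secreted protein of basement membranes, by 0.86 ± 0.15. Hmcn1 (hemicentin-1) had a log2 fold change of -1.03 ± 0.14, the low-level gene Frem1 of -3.58 ± 0.72 (0.142 ± 0.0311 CPM in knockouts and 1.72 ± 0.992 CPM in controls) and Agrn, which encodes the heparan sulfate proteoglycan agrin, of -0.53 ± 0.11. Agrn lies outside the rule by which genes were named and was chosen after its values were seen.

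Of 11 laminin chains, the partners that nidogens bind, 0 rose and 1 fell, with a median log2 fold change of -0.10. Lamb3 fell by 2.83 ± 0.35 on the log2 scale, to 9.15 ± 1.71 CPM in knockouts, against 64.9 ± 25.6 CPM in controls. The next smallest p-values belonged to Lamb2 (-0.32 ± 0.09), Lama1 (1.79 ± 0.53) and Lama5 (-0.50 ± 0.16), which did not pass. Lamc1, which carries the nidogen binding site in most laminins, had a log2 fold change of -0.46 ± 0.25 and was chosen after its values were seen.

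Of 25 genes of collagen folding, modification and secretion, 1 rose and 0 fell, and the median log2 fold change was -0.05. P4ha2, a catalytic subunit of collagen prolyl 4-hydroxylase, rose by 0.92 ± 0.13 (SE), to 42.1 ± 2.95 CPM in knockouts, against 22.3 ± 3.07 CPM in controls. Mia3, which encodes a receptor that loads collagens for export from the endoplasmic reticulum, had -0.31 ± 0.09, P3h3 -0.25 ± 0.12 and Hsp90b1 -0.35 ± 0.17, and these did not pass.

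Of 7 crosslinking genes 0 passed over all genes by edgeR, while 5 had an unadjusted p under 0.05, as had 4198 of the 15874 tested genes (26.4%). The values were 0.69 ± 0.16 for Lox, -0.44 ± 0.11 for Loxl4, -0.36 ± 0.12 for Loxl3 and -0.49 ± 0.19 for Pxdn, the peroxidase that forms the sulfilimine crosslink of type IV collagen. Of 14 receptors of type IV collagen, nidogen and perlecan, 1 rose and 2 fell. Itga1, the integrin chain that prefers type IV collagen, fell by 1.12 ± 0.09 on the log2 scale, to 106 ± 6.92 CPM in knockouts, against 231 ± 10.2 CPM in controls. The collagen receptor kinase Ddr2 fell by 0.56 ± 0.11 on the same scale, while Itga3, better known as a laminin receptor chain, rose by 1.18 ± 0.23, and Ptprs (-0.50 ± 0.12), a heparan sulfate receptor, did not pass.

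Of the 10 genes called in these lists, 8 were also called with the length and GC offset, which Agrn (-0.30) and Ddr2 (-0.40) were not. Without control 3, 0 of the 10 were called, in a fit that called 11 genes in all. Without control 1 there were 5, beside 266 of all genes, and without control 2 there were 4, beside 173. With all 5 libraries, 1150 genes were called. Itga1, Sparcl1 and Lamb3 kept their call in each of these fits but the one without control 3. Lamb3 also lost its call when no filter on low counts was applied, which Itga1 and Sparcl1 did not.

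**Figure D4:**
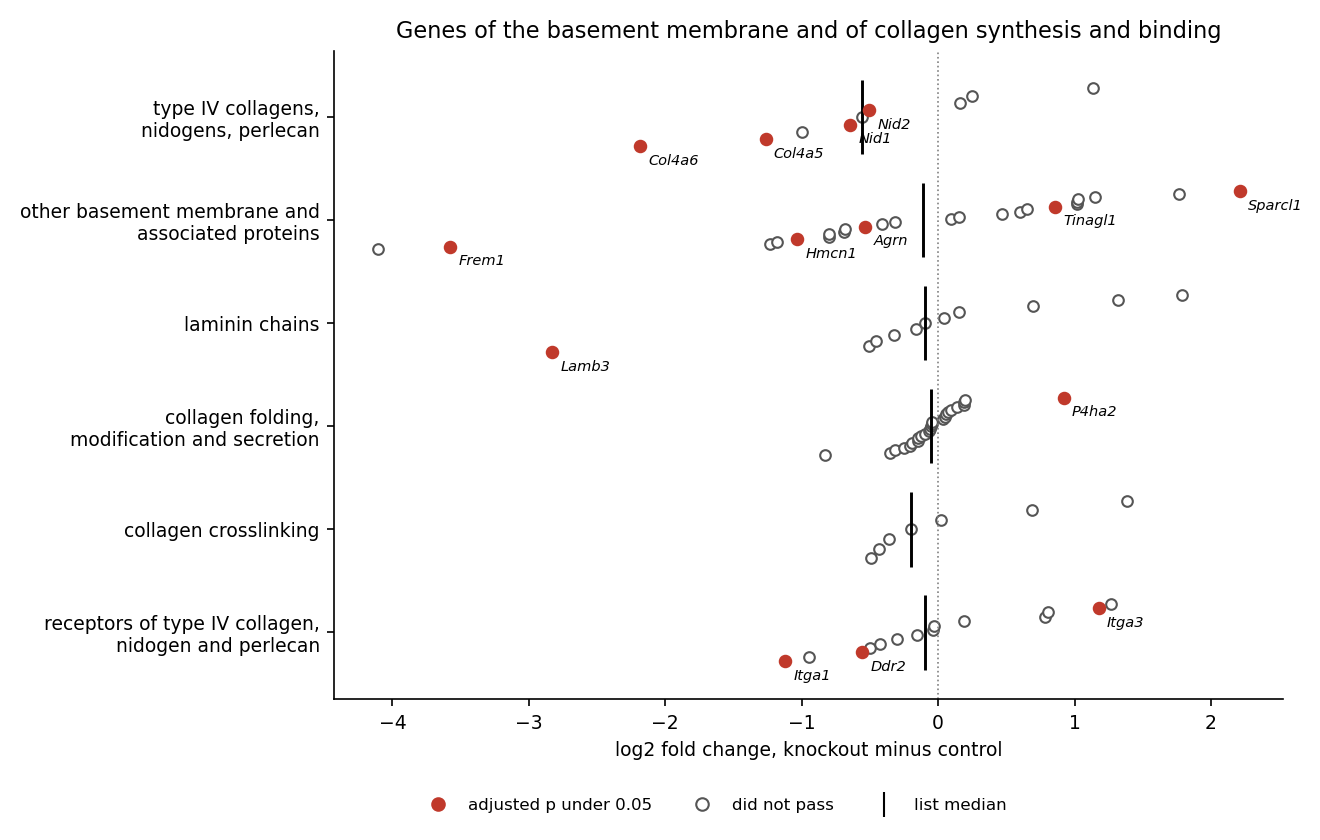
Log2 fold change, knockout minus control (horizontal axis), of each tested gene of 6 lists, with a vertical bar at each list's median. Filled points passed an adjusted p of 0.05 and are named; the type IV collagens, nidogens and perlecan have a median of -0.56, and the other lists have medians from -0.20 to -0.05.

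Some markers of other cells that make basement membrane were called as well, beside 3.25% higher and 3.99% lower of all tested genes. Of 15 blood endothelial markers 9 rose and 0 fell (median log2 fold change 1.15), and they summed to 3307 and 4236 CPM in knockouts and 2790 to 3086 CPM in controls, most of it Plvap. Markers of pericytes and smooth muscle, 12 in all, included 3 that rose and 0 that fell (median 0.66), with sums of 209 and 165 CPM in knockouts and 131 to 165 CPM in controls. Of 12 fibroblastic reticular cell markers 0 rose and 1 fell (Fbn1, -0.95 ± 0.19), with a median of 0.25.

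Of 9 tested epithelial markers, 1 rose (Epcam, 1.68 ± 0.30) and 1 fell (Ehf, -3.87 ± 0.84), and the sums of the 10 listed genes were 39.8 and 6.77 CPM in knockouts and 9.55 to 28.1 CPM in controls. Of 11 leukocyte markers 1 rose and 1 fell, with sums of 16.6 and 15.4 CPM in knockouts and 8.64 to 15.5 CPM in controls. Adgre1, the gene that rose, had only 15 and 20 reads in knockouts and 0 reads in all controls. Csf1r fell by 2.58 ± 0.53 on the log2 scale, with 20 and 8 reads in knockouts, against 123, 69 and 87 reads in controls. Of the markers in these lists only Esrp1 was at 0 in 4 of 5 libraries. Of 12 LEC markers 3 rose (Ccl21a, Mmrn1 and Sox18) and Prox1 fell (-0.75 ± 0.11), with a median of 0.04. With the length and GC offset, 10 blood endothelial markers, 1 pericyte marker and 2 LEC markers were higher, and the counts of the other marker lists were as without it. Without control 3, 0 markers of any of these lists were called, in a fit that called 11 genes in all. Without control 1, 5 blood endothelial markers and 1 pericyte marker were called higher, beside 0.882% of all genes. Without control 2 there were 4 and 0, beside 0.506%. The sort described above is meant to leave these other cells out: staining for CD45 removes leukocytes, the need for podoplanin blood endothelium, and the need for CD31 fibroblastic reticular cells, pericytes and epithelium. The part of these cells in the changes of Col4a5, Col4a6, Nid1 and Nid2 was not tested.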

How the data were processed

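RNA of sorted LECs was made into full-length cDNA with the SMART-Seq v4 kit and tagmented with Nextera XT, and read as single 50-base reads, per the labels' protocols. Per the file headers, the authors deposited raw read counts by Ensembl gene with a column for each library. HTSeq 0.6.1, Bowtie2 2.1.0, TopHat2 2.0.14, bcl2fastq 2.17.1.14 and the build mm10 are named in the submitters' processing notes. Which annotation release was counted, with what strand setting and how reads with several hits were handled is not given in the sources used here. Identifiers of 27648 of the 27843 genes were found in GENCODE M21 or the gene name table given with it; the annotation also gave positions and exon lengths on that build. The amplified reads carry no molecular identifiers and may repeat a molecule, and limits at 0 reads cover counting error only.

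The test was run with edgeR 4.0.16 in R 4.3.3: filterByExpr (minimum count 10), TMM scaling, the robust quasi-likelihood F test, and Benjamini-Hochberg adjustment over 15874 genes at 0.05. The SE was derived from the log2 fold change and its F statistic. CPM uses TMM-scaled library sizes. Ratios between genes had 0.5 added to each count and were compared by an exact permutation test over 10 arrangements. The method was tested on simulated counts.

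Alternatives were RLE factors, library totals, no filter, a filter at 1 CPM in 2 libraries, DESeq2 1.42.0, limma-voom 3.58.1, the replicate number as a block, a loess offset (span 0.5) for exon length and GC content, the block with that offset, and leaving out each library. All 9 genes were named, and from each biological list up to 4 genes with the smallest p. The genes, lists and rules were chosen with earlier results of these data known. Amino acid sequences were not used here.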

Additional observations from a re-analysis of the deposited data

How the results depend on the processing

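In each alternative that kept all 5 libraries, the genes it tested kept their direction; that was all 9 genes except with the filter at 1 CPM, which left out Col4a3 and Col4a4. RLE factors and the absence of a filter changed no call among them. With library totals alone Nid2 (-0.51) lost its call. Hspg2 gained one with a filter at 1 CPM (-0.990), with DESeq2 (-0.995) and with limma-voom (-1.02). The length and GC offset left 2 of the 9 genes lower, and Nid1 (-0.53) and Nid2 (-0.44) lost their call; over all genes 412 were higher and 312 lower, against 516 and 634 without it, which moves the share of higher calls from 44.9% to 56.9%. DESeq2 called 1254 genes higher and 1466 lower.

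With the replicate number as a block, 0 of the 9 genes were lower and 0 of all genes were called in either direction (edgeR quasi-likelihood; 2808 had an unadjusted p under 0.05), with Col4a5 at -1.30, Col4a6 at -2.27, Nid1 at -0.69 and Nid2 at -0.59. Under the block with that offset, 0 of the 9 genes were lower (5 had an unadjusted p under 0.05), with Col4a5 at -1.17, Col4a6 at -2.08, Nid1 at -0.56 and Nid2 at -0.52, and over all genes 3 were higher and 6 lower. Deviations from the group means correlated at 0.05 between the libraries numbered 1 and at -0.05 between those numbered 2. With 2 knockouts, the deviations of the knockouts mirror each other, so these values cannot show whether libraries with the same number belong together. The labels do not say which libraries share a litter or a batch. No knockout library is numbered 3, so under the block control 3 adds nothing to the estimated difference between groups. Both fits with the block therefore rest on the libraries numbered 1 and 2, and are not a check separate from leaving out control 3. Without control 3 and without a block, the values were -1.29 for Col4a5, -2.27 for Col4a6, -0.69 for Nid1 and -0.59 for Nid2.

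With a library left out, the number of the 9 genes called lower ranged from 0 to 4, genes called higher from 2 to 784 and genes called lower from 9 to 1125. The fewest were without control 3, and the cause was not tested. The log2 fold change ranged from -0.20 to 0.44 for Col4a1, from -0.19 to 0.58 for Col4a2, from 0.94 to 1.31 for Col4a3, from -1.40 to -1.15 for Col4a5, from -2.27 to -2.09 for Col4a6, from -0.74 to -0.56 for Nid1, from -0.59 to -0.44 for Nid2 and from -1.39 to -0.70 for Hspg2. Col4a4 ranged from -6.31 to 0.44; the lowest value comes from the fit whose single knockout library has 0 reads and is not a measured size. The log2 ratio of Nid1 to Nid2 differed by -0.29 to 0.013. With 1 knockout library left, its spread is assumed to be like that of the controls. Exon length taken from the longest transcript raised the control level per kb of Col4a6 to 1.33 and of Nid1 to 232 CPM.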
